A study of Mus musculus and Homo sapiens with 47 samples.

Results

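The 10 genes Pnliprp1, Pnliprp2, Wfdc18, Mdk, Npy, Gas1, Rims2, Pkm, S100a6 and Vim were described across intestinal stem cells of mice in which Eed had been deleted. They are 10 of 24052 genes in the single-cell matrices and 10 of 24014 in the bulk table, and all 10 are in both. They were chosen from measured values: each was raised in the single-cell library of day 12 over that of day 7, so the levels at day 12 against days 7 and 16 are given as a description, with no test. Every group carried the same genotype, Eed F/F with Lgr5EGFP-IRES-CreERT, on a B6;129 mixed background, and every mouse was given tamoxifen, daily for 5 days at first and every other day afterwards. By their labels the groups of each assay differ in the day, and other differences between them are not known. The labels do not state from which event days run. The labels of all groups say adult, and no age in weeks or months is given in the sources used here. Cre is made where Lgr5 is active, and cells carrying GFP from the same allele were sorted from the epithelium of the proximal intestine, so undeleted cells and cells of other types that passed the sort can be present. Single cells were profiled in droplets from the 3' ends of RNA, with 1 library at each of days 7, 12 and 16. For bulk RNA, day 9 has 3 libraries, days 14 and 21 have 2 each, and day 30 has 1. No library of undeleted mice was analysed here. A library kit is stated for replicate 2 of day 14 only. The labels call the bulk libraries biological replicates, except replicate 2 of day 14, labelled as a replicate only, and name no animals. The p-values below thus rest on the variation among libraries alone, which may be technical.

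Eed is a core subunit of Polycomb repressive complex 2, which methylates histone H3 at lysine 27 and keeps many developmental genes silent. Stem cells at the base of the intestinal crypt carry Lgr5, divide, and give rise to absorptive enterocytes and to the secretory Paneth, goblet, tuft and enteroendocrine cells. The 10 genes have different jobs. Pnliprp1 and Pnliprp2 encode relatives of pancreatic lipase, and Wfdc18 encodes a small secreted protein with a WAP four-disulfide core, a fold found in protease inhibitors. Mdk encodes midkine, a heparin-binding growth factor, Npy encodes neuropeptide Y, and Gas1 encodes a membrane-anchored co-receptor for Hedgehog ligands. Rims2 encodes a scaffold of vesicle release sites. Pkm encodes the muscle-type pyruvate kinase of glycolysis, S100a6 a calcium-binding protein, and Vim the intermediate filament vimentin, best known from mesenchymal cells.

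Promoters are shown because the genes were high in the same library. RefSeq promoters (GRCm38.p6) were found for 8 of the 10 members, all but Mdk and Rims2. The 250 bases before the start are printed 5′ to 3′ for the lipase relatives, which lie on the same chromosome, for Wfdc18 and for Vim, from chr19:58728637-58728886, chr19:58759473-58759722, chr11:83708754-83709003 and chr2:13574061-13574310, all on the plus strand. Capitals mark matches, on either strand, to any of 4 motifs, and no match overlaps another in these windows. The TATA box was searched as TATAAA. For sites of the GATA factors the letters were AGATAA. The core of sites bound by TCF and LEF, the factors at the end of the WNT pathway, was searched as CTTTGA. The GC box was searched as GGGCGG.
Pnliprp1: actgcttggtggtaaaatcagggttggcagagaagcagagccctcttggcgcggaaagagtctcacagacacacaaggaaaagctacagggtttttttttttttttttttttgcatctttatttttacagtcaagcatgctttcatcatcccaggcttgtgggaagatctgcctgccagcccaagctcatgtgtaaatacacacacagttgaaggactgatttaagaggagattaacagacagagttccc
Pnliprp2: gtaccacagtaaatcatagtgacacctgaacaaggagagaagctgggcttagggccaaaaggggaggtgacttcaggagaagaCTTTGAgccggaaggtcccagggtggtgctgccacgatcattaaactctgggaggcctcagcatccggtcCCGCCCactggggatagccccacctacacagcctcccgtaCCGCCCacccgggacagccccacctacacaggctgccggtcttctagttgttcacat
Wfdc18: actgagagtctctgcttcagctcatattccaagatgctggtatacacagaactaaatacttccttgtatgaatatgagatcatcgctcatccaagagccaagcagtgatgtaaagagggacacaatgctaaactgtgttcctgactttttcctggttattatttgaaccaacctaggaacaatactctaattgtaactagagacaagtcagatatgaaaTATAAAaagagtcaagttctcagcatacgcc
Vim: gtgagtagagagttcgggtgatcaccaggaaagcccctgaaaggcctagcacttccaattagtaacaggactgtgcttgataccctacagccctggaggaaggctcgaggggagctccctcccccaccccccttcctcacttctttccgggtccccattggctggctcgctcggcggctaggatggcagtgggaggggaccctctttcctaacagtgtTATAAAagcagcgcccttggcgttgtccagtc
The Wfdc18 and Vim windows hold a TATA box, at positions -31 to -26 and -32 to -27 from the start, a motif found in 12.4% of 32851 promoters of the same length. The GATA motif, in 9.99% of all promoters, was in none of the members' windows. Pnliprp2 has 1 match to the TCF/LEF core, which 13.8% of promoters hold, and 2 GC boxes, which 32.7% hold. Npy, Gas1 and 1 of the 2 Pkm starts hold 1 GC box each. Pnliprp1 has no match to any of the 4. The promoters also span a wide range of CpG dinucleotides: Pnliprp1 and Wfdc18 hold 2 each, S100a6 3, Pnliprp2 and Vim 8 each, Gas1 10 and Npy 21, and the 2 Pkm starts hold 21 and 18, against a median of 6 over all promoters. A match describes letters only, and no motif was shared by all 8 members.

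The single-cell libraries were first checked against their label. Epcam, an epithelial adhesion gene, had a UMI (a unique molecular identifier, counting 1 captured RNA molecule) in 99.4% to 99.9% of cells. Lgr5 had a UMI in 72.3%, 74.3% and 30.1% of the cells of days 7, 12 and 16. No doublets were removed. The day 12 library stood apart on Olfm4, a stem cell marker, with 10.1 UMIs per 1000000 UMIs of the library (CPM) against 241 and 437 CPM at days 7 and 16, and on 12 Paneth cell markers, with a summed level of 1731 CPM against 6639 and 7533 CPM. Eed had 54.4, 27.5 and 26.6 CPM, and since RNA from outside the deleted part is still counted, this checks neither the deletion nor the labels. Cells kept were 3828, 4685 and 2768, with median UMIs of 7957, 7560 and 11905 and summed UMIs of 35504044, 40326521 and 35255074. Cells kept in both libraries of a pair shared 4 barcodes (days 7 and 12), 1 (days 7 and 16) and 4 (days 12 and 16). Each day rests on 1 library, so day and library cannot be told apart, and intervals on single-cell values cover counting error only.

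In the single cells every member was at its highest at day 12. At day 12, 10 of 10 members were at least 2-fold above day 7, against 7.03% of 10719 genes with at least 200 UMIs in the 2 libraries, and 10 of 10 were at least 2-fold above day 16, against 16.3% of 10795 genes. Both counts rest on the day 12 values by which the members were chosen, so nothing is read from either. They were not the 10 genes with the largest folds: by fold over day 7 they ranked between place 12 (Gas1) and place 73 (Vim) of the 10719.

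**Figure D1:**
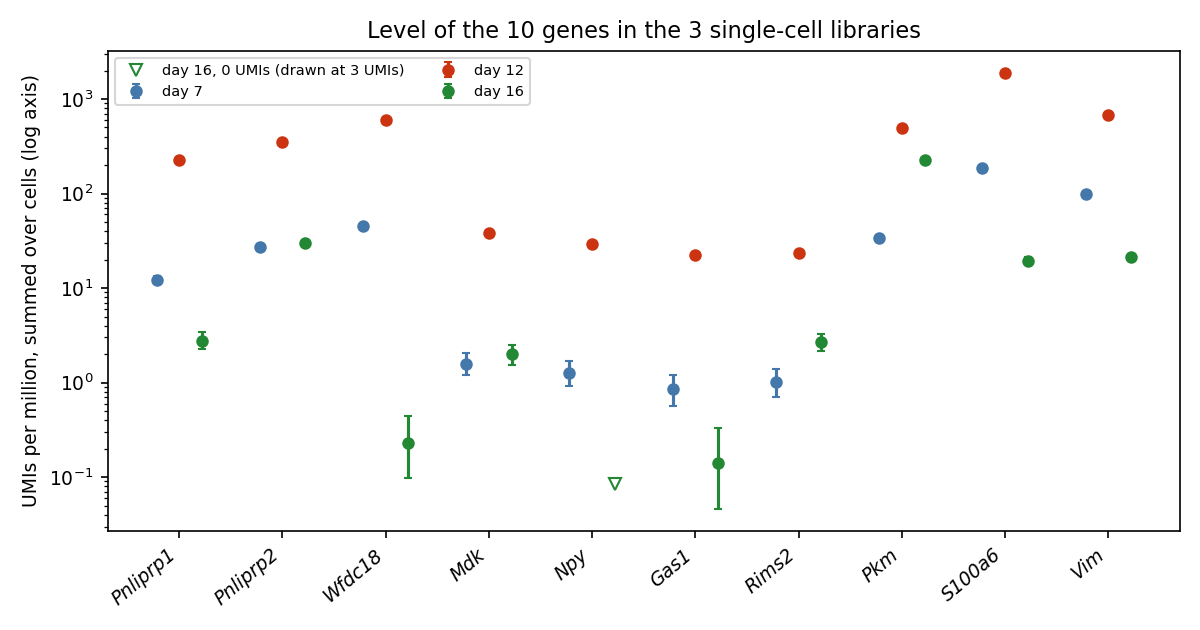
Level of each gene in CPM, from UMIs summed over all cells of a library, on a log axis, at days 7, 12 and 16; bars are exact 95% Poisson intervals, which cover counting error only. All 10 genes are highest at day 12, from 22.3 CPM (Gas1) to 1889.9 CPM (S100a6), and Npy at day 16, with 0 UMIs, is drawn at the level of 3 UMIs.

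The secreted lipase relatives were low, high and low again. Pnliprp1 was at 12.3 CPM at day 7, 228 at day 12 and 2.78 at day 16. Pnliprp2 was at 27.2, 351 and 29.7 CPM. The day 12 level of Pnliprp1 was thus 18.6-fold that of day 7 (95% interval 16.9 to 20.5) and 82.2-fold that of day 16 (67.4 to 101), and that of Pnliprp2 12.9-fold (12.1 to 13.8) and 11.8-fold (11.1 to 12.6). To compare shares of cells at 1 depth, every cell was thinned to 2000 UMIs, which left out no cell. Pnliprp1 then had a UMI in 1.85%, 19.1% and 0.397% of the cells of days 7, 12 and 16 (4.89%, 34.5% and 2.93% unthinned), and Pnliprp2 in 3.16%, 24.6% and 2.93% (8.15%, 41.2% and 9.28% unthinned). Their day 12 RNA was unevenly spread: the 10% of cells with most UMIs held 84.3% of the thinned Pnliprp1 UMIs and 79.8% of those of Pnliprp2, and single cells reached 139 and 222 UMIs.

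Wfdc18 was nearly without UMIs at day 16. Its level was 45 CPM at day 7, 597 at day 12 and 0.227 at day 16, where 8 UMIs were counted in 2768 cells. The day 12 level was 13.2-fold that of day 7 (12.6 to 13.9) and 2629-fold that of day 16 (1334 to 6091). It was also widely detected, in 44.4% of thinned cells at day 12 against 6.74% at day 7 and 0 of 2768 at day 16 (exact upper limit 0.133%).

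The signalling members had fewer UMIs, in fewer cells. Mdk was at 1.58, 38.1 and 1.99 CPM at days 7, 12 and 16, and in 5.68% of thinned day 12 cells. Npy was at 1.27 and 29.4 CPM at days 7 and 12 and had 0 UMIs at day 16, so that day 12 was at least 346-fold higher when 3 counts are set as the floor of the day 16 library. Gas1 was at 0.845, 22.3 and 0.142 CPM, the last from 5 UMIs. Mdk, Npy and Gas1 had a UMI in 13.4%, 6.87% and 12.8% of unthinned day 12 cells, but Npy reached 53 UMIs in a cell and had at least 10 UMIs in 30 cells, against 12 cells for Mdk and 2 for Gas1. Npy was thus concentrated in fewer cells than Gas1, which had a similar summed level.

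Rims2 had few UMIs in any cell. It was at 1.01, 23.2 and 2.67 CPM, and no day 12 cell held more than 5 of its UMIs, although 17.6% of the unthinned cells had at least 1.

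Pkm, S100a6 and Vim, with roles inside the cell, were among the members with most UMIs. Pkm was at 33.8 CPM at day 7, 489 at day 12 and 228 at day 16, so that its day 12 level was 14.5-fold that of day 7 (13.7 to 15.4) and 2.14-fold that of day 16 (2.09 to 2.2), the smallest of the 10. It was the most evenly spread member, in 59.5% of thinned day 12 cells, with 32.4% of its thinned UMIs in the top 10% of cells. S100a6 was at 186, 1889.9 and 19.5 CPM and Vim at 98.4, 678 and 21.5 CPM. S100a6 was in 58.9% and Vim in 44.1% of thinned day 12 cells, against 11.5% and 8.88% at day 7 and 3.11% and 1.81% at day 16. Markers of the mesenchymal cells that are best known for Vim were near 0: 12 stromal genes summed to 1.52, 10.2 and 1.22 CPM. Most of the day 12 value was Acta2, with 319 of 410 UMIs. Tagln (6, 47 and 6 UMIs) and Dcn (4, 29 and 0) were also highest at day 12. Pdgfrb (2, 4 and 22) and Thy1 (1, 1 and 9) were highest at day 16. Col1a2 and Col3a1 had 0 UMIs in all 3 libraries. Of the 12 stromal genes 4, 5 and 5 were at 0 on the 3 days. Of 16 immune markers 7, 5 and 3 were at 0, Csf1r and C1qb on every day, and their sum was 32.7, 19 and 113 CPM. The part of such cells in the members' levels was not tested.

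Free RNA carried the same genes. In barcodes with 1 to 100 UMIs, which mostly hold RNA from outside cells, the day 12 level was 592 CPM for Wfdc18, 1819 for S100a6 and 457 for Pkm, against 597, 1889.9 and 489 CPM in cells, and 165 for Pnliprp1 against 228. At day 16 the low barcodes held more than the cells for Wfdc18 (10.1 against 0.227 CPM), S100a6 (49.3 against 19.5) and Vim (40 against 21.5). A small share of cells with a UMI is therefore not read as expression here. At day 12 the shares also differed between cell classes after thinning. Thinning sets 1 depth but does not make the part of free RNA equal between cells. The part of free RNA in these differences was not tested. Cells were gated by the number of marker genes with a UMI, leaving the members out. In the enterocyte gate of day 12 (62 cells with at least 5 markers, median 16535 UMIs, 120 more cells being 1 marker short) Pnliprp1 was found in 0 thinned cells (exact upper limit 5.78%), S100a6 in 11.3% (95% interval 4.66 to 21.9), Vim in 9.68% (3.63 to 19.9) and Wfdc18 in 11.3% (4.66 to 21.9). These values lie below the 19.1%, 58.9%, 44.1% and 44.4% of all day 12 cells. Pkm showed no such gap, with 58.1% (44.8 to 70.5) against 59.5%. Not every gap was present in the Paneth gate of day 12 (63 cells). There Wfdc18 was in 44.4% of thinned cells (31.9 to 57.5) and Pnliprp1 in 14.3% (6.75 to 25.4). S100a6, in 31.7% (20.6 to 44.7), and Vim, in 22.2% (12.7 to 34.5), were below all day 12 cells there too.

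Within day 12, 9 of the 10 members were higher in cells with few cycling markers. How many of all genes were higher there was not counted, so the 9 are not read as a trait of the members. Of 18 cycling genes, 1268 cells had a UMI of at least 5 (the cycling gate) and 2076 of at most 1 (the non-cycling gate), with 248 and 694 cells 1 marker away from the limits and median depths of 11845 and 6147 UMIs. Npy was at 65.1 CPM in the non-cycling and 4.6 CPM in the cycling gate, Pnliprp2 at 723 and 78 CPM, and Pnliprp1 at 462 and 53.8 CPM. S100a6 stood at 3244 against 648 CPM, Vim at 1073 against 329, Wfdc18 at 903 against 284 and Mdk at 61.6 against 20.4 CPM. The gap was smaller for Gas1 (31.6 and 12.2 CPM) and Rims2 (29.9 and 17.2 CPM). Pkm was the exception, at 455 CPM in the non-cycling and 527 CPM in the cycling gate. At equal depth the order of the shares was the same for Pnliprp2, with 35.4% of thinned cells (33.3 to 37.5) in the non-cycling gate and 10.3% (8.71 to 12.1) in the cycling gate, and for S100a6, with 70.8% (68.8 to 72.8) and 39.8% (37.1 to 42.6). The non-cycling gate also held a larger part of the cells at day 12, 44.3%, than at day 7 (29.9%) or day 16 (18.4%), and the part of that in the levels of whole libraries was not tested. Within the non-cycling gate the day 7 and day 12 levels were 369 and 3244 CPM for S100a6, 61.8 and 723 for Pnliprp2, and 26.3 and 455 for Pkm.

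**Figure D2:**
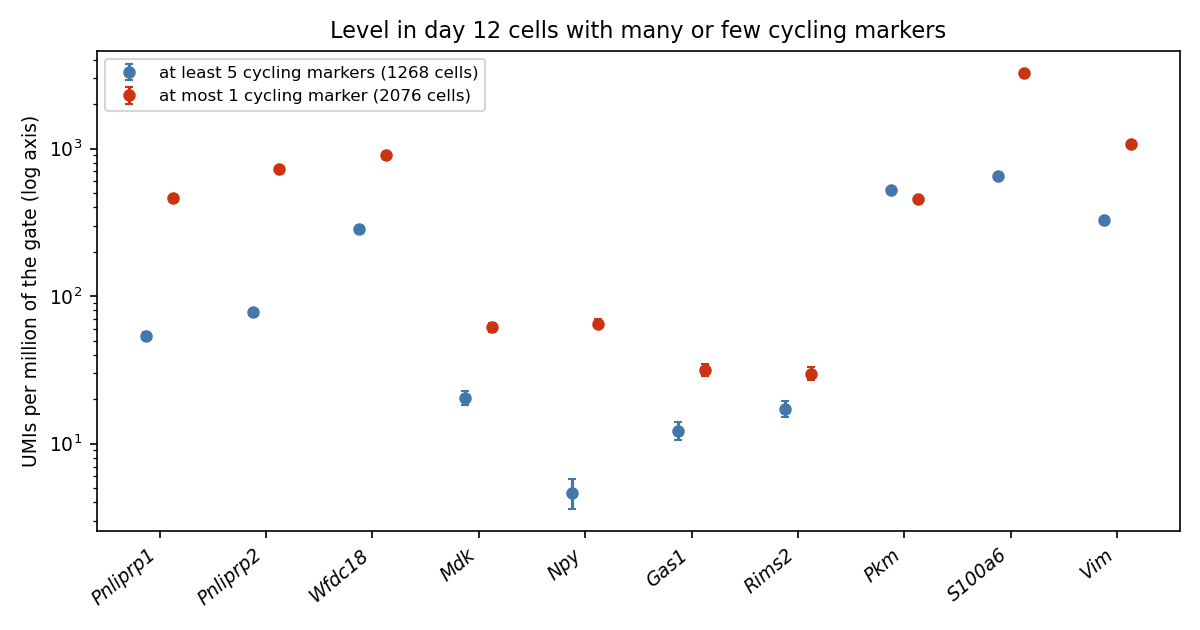
Level of each gene at day 12 in CPM of the gate's UMIs, on a log axis, in cells with UMIs of at least 5 of 18 cycling markers (1268 cells) and of at most 1 (2076 cells); bars are exact 95% Poisson intervals. 9 genes are higher in the cells with few cycling markers, from Npy (65.1 against 4.6 CPM) to Rims2 (29.9 against 17.2 CPM), and Pkm is not (455 against 527 CPM).

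Detection of Lgr5 divided the members less. In Lgr5-positive and Lgr5-negative cells of day 12 Pnliprp2 was at 340.1 and 385 CPM, Wfdc18 at 628 and 503, Vim at 691 and 639, and S100a6 at 1804 and 2150.1 CPM. Npy was at 24.2 and 45.3 CPM.

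Outside day 12 the share of a member's UMIs in gated secretory cells differed between members and days. At day 16 the goblet and Paneth gates (340 and 207 cells, 173 of them in both) together held 13.5% of the cells, 84.2% of the Pnliprp2 UMIs and 56.2% of those of S100a6. In the Paneth gate alone Pnliprp2 stood at 315 CPM (95% interval 294 to 336), near its day 12 level of 325 CPM in the same gate (284 to 369). At day 7 both gates held 4.62% of the cells and 36.7% of the Pnliprp2 UMIs, whereas at day 12 they held 2.03% of the cells and 1.8% of the UMIs. Pnliprp1 did not share this pattern to the same extent: at day 16 it was at 11 CPM in the Paneth gate (7.4 to 15.7), and both gates held 33.7% of its 98 UMIs. Rims2 was found in the enteroendocrine gate, in 8.6% of 93 cells at day 7, 15.6% of 32 at day 12 and 13% of 92 at day 16, against 0.287%, 4.87% and 0.759% of all cells, all thinned. Vim was at 851 CPM in the enteroendocrine gate of day 16 (789 to 918), above its 256 CPM in the same gate at day 12 (195 to 329), which reverses the order of whole libraries. Pkm was at 132 to 378 CPM in the 5 gated classes of day 16 and at 359 to 537 CPM in those of day 12.

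Most member pairs were found in the same day 12 cells more often than their separate shares give. In cells thinned to 2000 UMIs, 40 of 45 pairs exceeded the product of the shares, with a median ratio of 1.24 and a range from 0.967 to 2.72. Pairs of other genes were not counted, so the 40 are not read as a trait of the members. In 7 pairs the ratio was above 1.5, and in 15 it lay between 0.9 and 1.1. Pnliprp1 and Pnliprp2 were found together in 548 cells, against 220.3 from the product, a ratio of 2.49: Pnliprp2 had a UMI in 61.2% of Pnliprp1-positive cells (57.9 to 64.4) and in 15.9% of the others (14.8 to 17.1). The ratios of Npy were 2.72 with Pnliprp1, the highest of the 45, 2.46 with Pnliprp2 and 2.09 with Mdk, the last from 21 cells. S100a6 was present in 171 of 177 Npy-positive cells, 96.6% (92.8 to 98.7), and in 57.5% of the others (56 to 58.9).

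**Figure D3:**
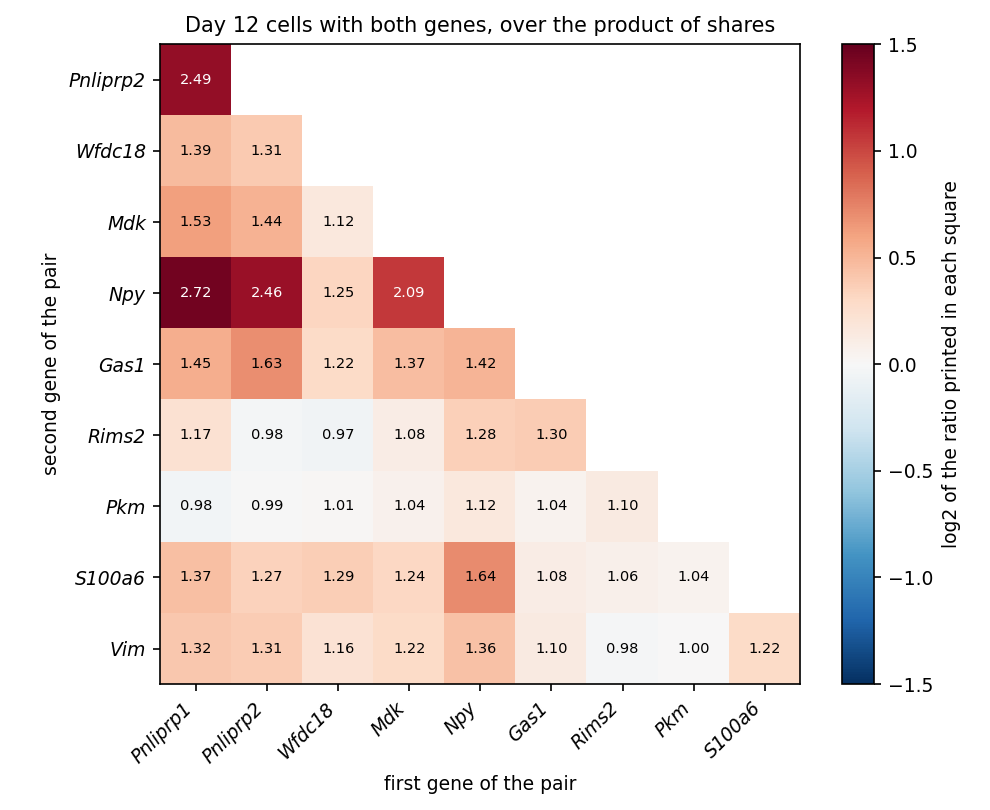
For each pair of genes, day 12 cells with a UMI of both divided by the number that the product of the 2 shares gives, over 4685 cells thinned to 2000 UMIs; red squares lie above 1 and blue squares below. The highest ratios join Npy, Pnliprp1 and Pnliprp2 (2.46 to 2.72), and the Pkm squares lie between 0.975 and 1.12.

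The 9 ratios of Pkm lay between 0.975 and 1.12. Those of Rims2 ranged from 0.967 with Wfdc18 to 1.28 with Npy and 1.3 with Gas1, the last 2 from 11 and 13 cells. Wfdc18 and S100a6 were found together in 1581 cells, S100a6 being present in 75.9% of Wfdc18-positive cells (74 to 77.8) and in 45.3% of the others (43.4 to 47.3). Wfdc18, Pnliprp1 and Pnliprp2 were all 3 present in 348 cells, 7.43% of the library, where the product of their shares gives 2.09%, and at least 1 of them in 57.8%, where it gives 66.1%.

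Cells with many of the 10 genes were more frequent than separate shares give, and so were cells with none. A day 12 cell had a median of 3 members after thinning. 5 or more were present in 686 cells, 14.6%, where the product of the shares gives 6.97%, and none in 332 cells, 7.09%, where it gives 2.6%. No cell held more than 8. At day 7 the same excess was present at low levels: 84 of 3828 cells, 2.19%, held 3 or more, where the product gives 0.445%, and all 12 pairs with a product of at least 5 cells lay above it, with a median ratio of 2.55. S100a6 was found with Vim in 117 cells, where the product gives 39, and with Wfdc18 in 101, where it gives 29.6. At day 16, 1059 cells held exactly 1 member, mostly Pkm (982 cells with a UMI), and 4 of 2768 held 3 or more.

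**Figure D4:**
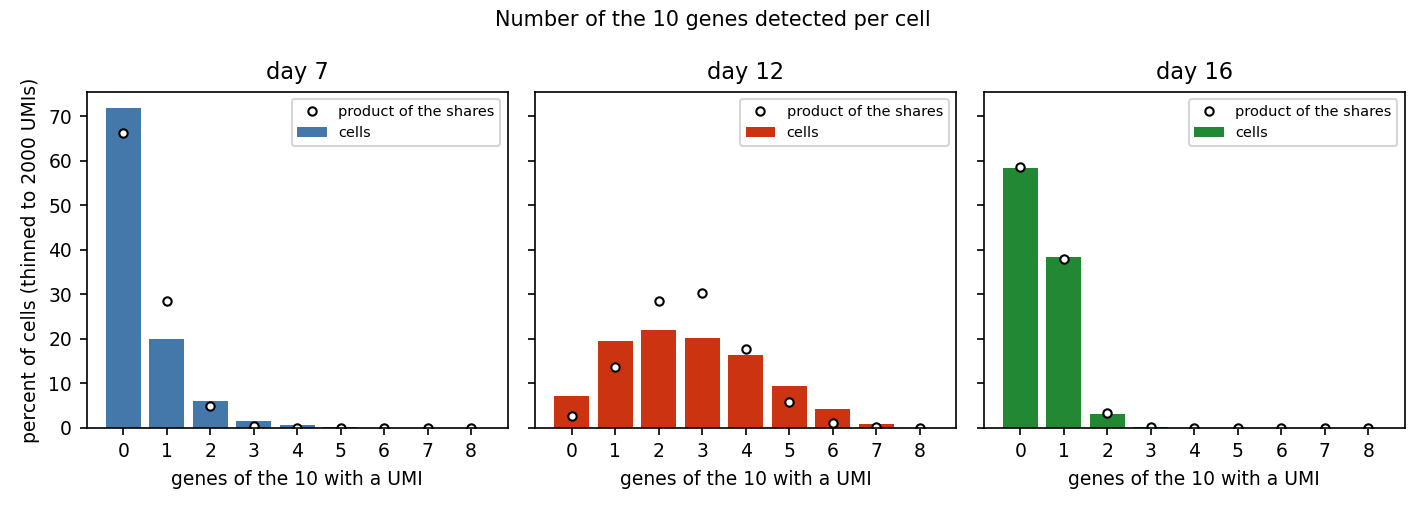
Share of cells, in percent, by the number of the 10 genes with a UMI after thinning to 2000 UMIs, at days 7, 12 and 16; circles give the share that the product of the 10 separate shares gives. At day 12 cells with 5 or more genes make up 14.6% against 6.97% from the product, and at day 16 bars and circles nearly coincide.

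The co-detection ratios were lower within the cells of few cycling markers. The largest ratio that a pair can reach falls as its shares rise, and most shares were higher in these cells. A lower ratio is therefore not read as weaker co-detection, between gates or between days. In the 2076 cells of the non-cycling gate 32 of 45 pairs exceeded the product, with a median ratio of 1.11, and the ratio of Pnliprp1 with Pnliprp2 was 1.87 and with Npy 1.96. In the cycling gate, 28 pairs had a product of at least 5 cells, 19 of which exceeded it, and Pnliprp1 with Pnliprp2 reached 3.96 from 38 cells. These gates were chosen after the data were seen.

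The genes most like each member over day 12 cells were named by Pearson's r of log counts per 10000 UMIs, over 4685 cells that share a library and differ in depth, among 9251 genes with a UMI in at least 5% of the cells. Pnliprp1 and Pnliprp2 were each other's nearest gene (r = 0.67), followed by Spock2 for Pnliprp1 (0.40) and Ceacam10 for Pnliprp2 (0.49). Wfdc18 was nearest to Clu (0.50), a marker of regenerating intestinal epithelium, Fxyd3 (0.48) and S100a6 (0.47). S100a6 was nearest to Anxa2 (0.63), Clu (0.62) and S100a11 (0.60), and Vim to Notum (0.48), an inhibitor of WNT ligands, Fth1 (0.44) and Nkd1 (0.42). Npy was nearest to Bpifb5 (0.35) and the WNT inhibitor gene Wif1 (0.34). The highest r of Mdk, Gas1, Rims2 and Pkm was 0.17, 0.21, 0.14 and 0.23, too weak in sparse counts to name a neighbour.

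The other genes of the members' pathways were compared between the single cells of days 7 and 12, as a description of these libraries. Of 15 compared genes of fetal and regenerating epithelium, 8 were at least 2-fold higher at day 12 and 1 lower, with a median log2 ratio of 1.40. Over all 10719 genes compared, 754 were higher and 245 lower, with a median of 0.11. Clu stood at 247, 937 and 2.33 CPM at days 7, 12 and 16. Of 8 S100 genes 4 were higher (median 0.95), S100a11 among them with 272, 549 and 67 CPM, and of 16 genes of lipid digestion and uptake 5 were higher and 1 lower (median 0.49). Pancreatic lipase itself, Pnlip, had 0, 7 and 0 UMIs. Of 23 pancreatic acinar genes 14, 12 and 10 were at 0, among them Cpa1, Prss1, Amy2a5 and Ptf1a on every day, and their sum was 339, 397 and 1137 CPM, most of it from Zg16, Cela1, Reg1, Rnase1 and Clps at day 12. Of 22 glycolysis genes 3 were higher and 0 lower (median 0.28), among them Aldoc with 65.9, 167 and 3.04 CPM. Of 12 genes of the midkine list 3 were higher (median 0.04), and of 4 of the neuropeptide Y list 1 (median -0.06). None of 5 Hedgehog pathway genes differed 2-fold (median -0.09). The presynaptic list had 2 of 12 higher (median 0.60), intermediate filaments 2 of 9 (median 0.83) and the WAP four-disulfide list 2 of 3 (median 1.38), with 0 lower in each. The single genes named from these lists were chosen after their values were seen. Of the receptors of neuropeptide Y, Npy1r, Npy5r and Npy6r had 0 UMIs on all days.

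Bulk libraries are replicated and took no part in choosing the members, so they allow a test. None has day 12, and the nearest are days 9 and 14. In bulk, CPM are counts per 1000000 after TMM scaling, and totals were 21328684 to 27900351 counts per library. Both day 14 libraries stood apart from the other 6: they had a count for 14988 and 13707 genes against 16163 to 16952, Epcam at 2476 and 2380.2 CPM against 1320.1 to 1572, and Eed, in a series where all groups carry its deletion, at 86.1 and 81.5 CPM against 34.2 to 46.3. The part of this in the day 14 differences was not tested. Of the 10 members 9 passed the filter on low counts, and Npy, with 1 count in the 8 libraries together, did not. In day 14 against day 9, 3 of the 9 were called at an adjusted p under 0.05, 1 higher and 2 lower, against 51.1% of 14692 genes tested (3734 higher and 3774 lower). The median log2 difference of the 9 was -0.60, that of all genes tested -0.04. In day 14 against day 21, 4 were called, 1 higher and 3 lower, against 58.6% of genes, in day 21 against day 9 1, lower, against 20.2%, and in day 30 against day 9 1, lower, against 10.3%. The day 30 library has no replicate, and its test assumes that it varies like the other groups. The first 2 comparisons share the day 14 libraries, and 3 of the 4 share day 9. The test throughout is edgeR's quasi-likelihood F test, with Benjamini-Hochberg adjustment over all genes tested.

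**Figure D5:**
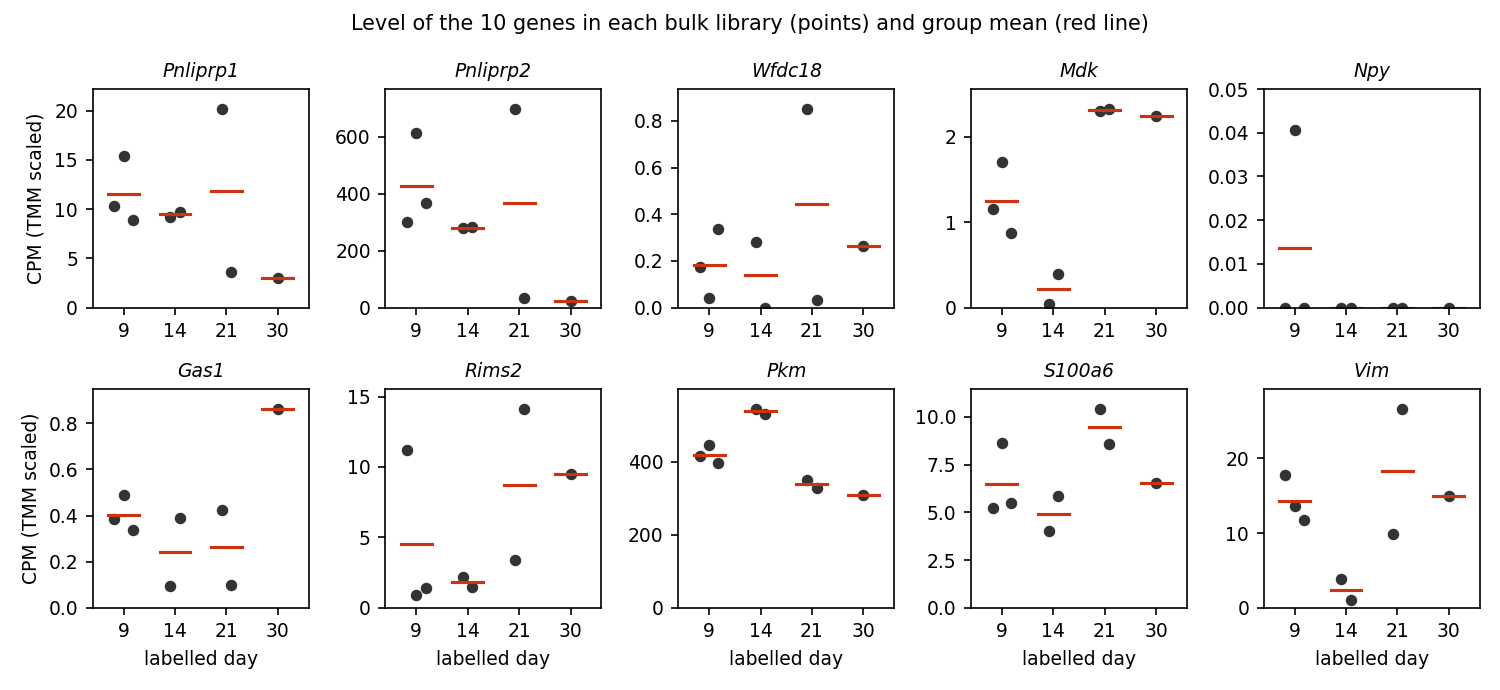
Level of each gene in CPM (TMM scaled) in the 3, 2, 2 and 1 bulk libraries of days 9, 14, 21 and 30; points are libraries, red lines group means, and each panel has its own axis from 0. Pkm has its highest group mean at day 14, and Mdk, Vim, Rims2, S100a6, Wfdc18 and Gas1 have their lowest there.

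Pkm was the member whose bulk level was highest at day 14. At day 9 it was at 416, 445 and 398 CPM, at day 14 at 544 and 532, at day 21 at 349 and 328 and at day 30 at 308. No group overlapped its neighbour. At day 14 Pkm exceeded its day 9 level 1.28-fold (log2 0.36, SE 0.08, adjusted p = 0.00633) and its day 21 level 1.59-fold (log2 0.67, SE 0.09, adjusted p = 0.000301). Without day 14 replicate 1 the first of these did not pass (log2 0.30, adjusted p = 0.0684). The differences of day 21 (log2 -0.31, adjusted p = 0.0334) and day 30 (log2 -0.45, adjusted p = 0.0349) from day 9 passed, but not under library-size scaling, which moves the median of all genes by 0.22 and 0.21 (log2 -0.09, adjusted p = 0.428, and log2 -0.24, adjusted p = 0.148). The call of day 21 was also lost without any 1 of the 7 libraries of days 9, 14 and 21 (adjusted p from 0.0517 to 0.121), and that of day 30 without any 1 of the 5 libraries of days 9 and 14 (adjusted p from 0.0516 to 0.0939).

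Vim and Mdk were lowest at day 14. Vim was at 17.8, 13.6 and 11.7 CPM at day 9, 3.86 and 1.02 at day 14, 9.94 and 26.6 at day 21 and 15 at day 30. The day 14 libraries lay below all 6 others. Vim was 5.86-fold lower than at day 9 (log2 -2.55, SE 0.58, adjusted p = 0.00589) and 7.45-fold lower than at day 21 (log2 -2.90, SE 0.61, adjusted p = 0.00342). Mdk was at 1.16, 1.71 and 0.87 CPM at day 9, 0.0465 and 0.389 at day 14 (1 and 8 counts), 2.31 and 2.33 at day 21 and 2.25 at day 30. Its day 14 libraries were also the lowest of the 8. Mdk was lower at day 14 by log2 -2.51 (SE 0.71, adjusted p = 0.0164) than at day 9 and by log2 -3.40 (SE 0.73, adjusted p = 0.00389) than at day 21. Summed immune and stromal markers were also lowest at day 14. The stromal sums ordered the 8 libraries as Mdk did, except that day 9 replicates 1 and 3 changed places. The summed level of 16 immune genes was 27.5 to 49.8 CPM at day 9 and 17.9 and 19.5 at day 14. It was 61.2 and 62.7 at day 21 and 23 at day 30, below every day 9 library. That of 12 stromal genes was 3.87 to 6.91 CPM at day 9, 2.93 and 3.3 at day 14, 8.38 and 18.1 at day 21 and 8.18 at day 30. At day 14, 7 and 10 of the 12 stromal genes and 1 and 7 of the 16 immune genes were at 0. The summed level of 20 enteroendocrine markers was lowest at day 14 too, at 449.6 and 416 CPM. It was 1278 CPM in day 21 replicate 2, the library with most Vim, but 799.8 in day 21 replicate 1, with 9.94 CPM of Vim. The part of immune, stromal and enteroendocrine cells in the levels of Vim and Mdk was not tested. In bulk samples fewer cells of a type and less RNA per cell cannot be told apart.

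S100a6, the member with most UMIs in day 12 single cells, stayed between 4 and 10.4 CPM in bulk. It was at 5.25, 8.65 and 5.51 CPM at day 9, 4 and 5.83 at day 14, 10.4 and 8.57 at day 21 and 6.52 at day 30. The difference between days 14 and 9 did not pass (log2 -0.40, 95% interval -1.07 to 0.27, adjusted p = 0.287). Against day 21 it was lower (log2 -0.95, SE 0.32, adjusted p = 0.0303), a call lost without day 14 replicate 1 (adjusted p = 0.129) or day 21 replicate 1 (adjusted p = 0.119).

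Pnliprp2 and Pnliprp1 varied most between the replicates of day 21. It was at 300.0, 611 and 368 CPM at day 9, 280.0 and 281 at day 14, 697 and 34.9 at day 21 and 23 at day 30. The 2 day 21 libraries were the highest and the second lowest of the 8. Pnliprp1 had the same pattern at lower levels, with 10.3, 15.4 and 8.94 CPM at day 9, 9.25 and 9.67 at day 14, 20.2 and 3.58 at day 21 and 2.98 at day 30. Neither passed the test in any of the 4 comparisons (day 14 against day 9: log2 -0.60, 95% interval -2.61 to 1.40, adjusted p = 0.594 for Pnliprp2, and log2 -0.29, interval -1.61 to 1.03, adjusted p = 0.703 for Pnliprp1). The day 21 replicates decide the comparison of days 14 and 21: without replicate 1 Pnliprp2 and Pnliprp1 were higher at day 14 than at day 21 (log2 3.01, adjusted p = 0.000381, and log2 1.40, adjusted p = 0.0143), and without replicate 2 both were lower (log2 -1.31, adjusted p = 0.00954, and log2 -1.10, adjusted p = 0.0187). In day 30 against day 9 Pnliprp2 did not pass (log2 -4.21, SE 1.45, adjusted p = 0.107), but it did without day 21 replicate 1 (adjusted p = 0.000401) or replicate 2 (adjusted p = 0.000408). The summed level of 12 Paneth markers was 15482 to 27943 CPM at day 9, 20340.1 and 19298 at day 14, 13712 and 2900.4 at day 21 and 1913 at day 30. The 2 libraries with the least Pnliprp2 were those with the lowest Paneth sum. They had the highest sums of 12 goblet markers, 13564 CPM in day 21 replicate 2 and 11023 at day 30, against 4472 to 8235 CPM in the other 6. The part of Paneth and goblet cells in these levels was not tested.

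Rims2 differed more between replicates than between days. It was at 11.2, 0.894 and 1.4 CPM at day 9, 2.18 and 1.46 at day 14, 3.37 and 14.1 at day 21 and 9.5 at day 30, and passed no test. Day 9 replicate 1 decides the direction at day 14: log2 was -1.30 (SE 1.07, adjusted p = 0.339) with it and 0.63 without it (adjusted p = 0.487). The summed level of 20 enteroendocrine markers was 665, 604 and 538 CPM at day 9, 449.6 and 416 at day 14, 799.8 and 1278 at day 21 and 641 at day 30, and the part of such cells in Rims2 was not tested.

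Wfdc18, Gas1 and Npy were near the floor of the bulk data. Wfdc18 had 0 to 24 counts per library, at most 0.852 CPM (day 21 replicate 1), and Gas1 2 to 26 counts, at most 0.861 CPM (day 30). Neither passed a test, and the intervals are wide (Wfdc18, day 14 against day 9: log2 -0.33, 95% interval -3.91 to 3.25). Npy had 1 count, in day 9 replicate 2. Single-cell UMIs tag 3' ends, and for most bulk libraries no kit is stated that would tell which part of transcripts was read. Levels on the 2 scales are therefore set side by side only. In single cells of days 7 and 12, Wfdc18 was at 45 and 597 CPM, and between 0 and 0.338 CPM in the bulk of days 9 and 14, and S100a6 at 186 and 1889.9 against 4 to 8.65 CPM. For Pkm the values were 33.8 and 489 against 398 to 544 CPM, and for Pnliprp2 27.2 and 351 against 280.0 to 611 CPM.

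Genes of the same pathways were counted in bulk day 14 against day 9, where 51.1% of all genes were called. The median log2 difference of all genes tested was -0.04, and those of the 10 pathway lists lay between -0.75 (Hedgehog pathway) and 0.79 (WAP four-disulfide core). The pancreatic acinar markers had a median of -1.21, with 1 of 15 tested genes higher and 0 lower. S100 genes had 4 of 8 higher and 1 lower, S100a11 at 106 against 44.2 CPM among them (adjusted p = 0.000161). Of 17 other intermediate filament genes 4 were higher and 4 lower, and the keratin genes Krt19 (log2 0.84, adjusted p = 0.000149) and Krt8 (log2 0.52, adjusted p = 0.00114) were among the higher. Glycolysis genes had 8 of 26 higher and 6 lower: Ldha, lactate dehydrogenase A, was at 1503 against 684 CPM (adjusted p = 1.62e-05) and Hk2, a hexokinase, at 40.9 against 141 CPM (adjusted p = 5.65e-05). Of 9 tested Hedgehog pathway genes 5 were lower and 0 higher, the co-receptor gene Cdon by log2 -3.45 (adjusted p = 4.44e-05). Of 23 presynaptic genes 10 were lower and 1 higher, Cplx2 by log2 -2.92 (adjusted p = 0.000126), and of 15 genes listed with the ligands and receptors of midkine 8 were lower and 1 higher, Lrp1, a receptor, by log2 -1.85 (adjusted p = 6.05e-06). That list also holds Nkd1, which is neither. Of 8 genes of the neuropeptide Y list 2 were lower and 0 higher, both of peptide processing: Pam by log2 -2.41 (adjusted p = 1.06e-05) and Pcsk1 by log2 -1.01 (adjusted p = 0.00335). Lipid digestion and uptake had 6 of 25 lower and 0 higher, Mgll, a monoacylglycerol lipase, by log2 -1.57 (adjusted p = 0.00323) and Apob by log2 -1.46 (adjusted p = 0.00891). Fetal and regenerating epithelium had 7 of 18 lower and 1 higher, Areg by log2 -2.62 (adjusted p = 0.000747) and Ccnd1 by log2 -1.89 (adjusted p = 9.85e-06) being lower. The WAP four-disulfide genes had 1 of 6 higher, Wfdc15b at 9.19 against 2.98 CPM (adjusted p = 0.00648), and 1 lower, Wfdc2 at 3.59 against 7.86 CPM (adjusted p = 0.00944).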

How the data were processed

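The deposited values are counts per gene: reads of bulk libraries and UMIs of single-cell barcodes. Per the submitters' processing notes, STAR 2.5.3a and Cell Ranger 3.0.2 and the mouse build mm9 were used for the series. The sources used here name neither the role of each tool nor the annotation. Of the bulk columns, 1 whose day no sample has was not used, and the second day 30 sample was not analysed here.

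From the unfiltered matrices, barcodes were kept above a UMI threshold, 10% of the 99th percentile over the top 5000 barcodes, if they had 500 or more genes and a mitochondrial share up to 20%, with Python 3.11.15. Bulk counts of all 8 libraries were fitted in 1 model with edgeR 4.0.16 (TMM, filterByExpr, quasi-likelihood F test, Benjamini-Hochberg adjustment, threshold 0.05). The fit was tested on simulated data. Intervals are 95%: exact Poisson for levels, exact binomial (Clopper-Pearson) for shares and ratios of UMIs. Bulk replicates differed by more than sampling noise.

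The members and lists were chosen with earlier results of these data known. All 10 members are named, with up to 3 genes per list of smallest adjusted p in day 14 against day 9 and 3 most correlated genes per member. Gate limits were chosen after seeing the data. Alternatives were other scalings, DESeq2 1.42.0, no filter, only the libraries compared, a replicate block, leaving out each library, and other cell filters and depths.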

Additional observations from a re-analysis of the deposited data

How the results depend on the processing

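All 10 members were highest at day 12 in single cells under each of the 7 alternatives tried. The members were chosen on the same libraries, so nothing is read from this. In bulk, members called in day 21 against day 9 (1) became 0 with RLE size factors, library-size scaling, only the libraries compared or the replicate block. In day 30 against day 9 (1) they became 2 with DESeq2 or only the libraries compared, and 0 with library-size scaling or the block. Genes called in day 30 against day 9 (1511) became 2377 with library-size scaling. With the replicate block, genes called became 1689 in day 21 against day 9 (2974) and 764 in day 30 against day 9, and the direction turned for Pnliprp1 (-0.36, day 21 against day 9), Pnliprp2 (0.02, day 14 against day 21), Vim (-0.11, day 30 against day 9) and Wfdc18 (0.07, day 14 against day 9). Same-numbered libraries deviated with correlations from -0.05 to 0.04, so the numbers were not taken to pair them. Library-size scaling turned Pnliprp2 in day 21 against day 9 (0.01). The cause of these shifts was not tested.

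Leaving out 1 library at a time, members called ranged from 2 to 3 (day 14 against day 9), 3 to 6 (day 14 against day 21), 0 to 2 (day 21 against day 9) and 0 to 3 (day 30 against day 9). Genes called ranged from 6076 to 7516, 7361 to 8668, 1864 to 2811 and 875 to 1832 in the same order. Log2 differences that turned ranged, in day 14 against day 9, from -5.22 to 0.63 for Wfdc18 and -1.83 to 0.63 for Rims2. In day 14 against day 21 they ranged from -1.43 to 1.24 for Gas1, -1.10 to 1.40 for Pnliprp1 and -1.31 to 3.01 for Pnliprp2. In day 21 against day 9 they ranged from -1.99 to 0.07 for Gas1, -1.69 to 0.81 for Pnliprp1, -3.61 to 0.71 for Pnliprp2, -0.41 to 2.94 for Rims2 and -0.53 to 0.89 for Vim. In day 30 against day 9 they ranged from -0.11 to 0.29 for S100a6 and -0.06 to 0.25 for Vim. Depth limits Wfdc18, Gas1 and Npy in bulk, with at most 26 counts in a library.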
